A study of Mus musculus with 10 samples.

Results

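Articular-like cells of the *Grem1* lineage were divided by how much *Acan* transcript each cell held, and the cells of low and of high *Acan* share were compared on the same plates. A cell was counted as articular-like where at least 350 genes had a UMI (a unique molecular identifier, which marks 1 captured transcript molecule), where *Clu*, *Cilp* and *1500015O10Rik* together made up at least 2.5% of its UMIs, and where this sum exceeded *Cnmd*. By this rule 337 of the 684 *Grem1-TdT* wells with at least 350 genes were kept, of 768 such wells and 930 wells in the whole series. Within each plate these cells were ranked by *Acan* UMIs over total UMIs and split into 3 groups, which gave 109 low-*Acan*, 119 middle and 109 high-*Acan* cells. Each plate held 11 to 19 cells of the low-*Acan* group and as many of the high-*Acan* group.

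The groups were thus selected on measured *Acan*, and the values that follow for it are a description. The low-*Acan* cells held 78 *Acan* UMIs in all, with 0 to 3 in a cell, and 49 of them held none. The high-*Acan* cells held 672, with 2 to 17 in a cell. As a share of the summed UMIs of a plate, *Acan* lay between 0.0113% and 0.102% (median 0.0803%) in low-*Acan* cells, between 0.108% and 0.300% in the middle group, and between 0.380% and 0.591% (median 0.507%) in high-*Acan* cells. A cell was therefore placed by a handful of molecules, and at this depth neighbouring cells can change places by counting error alone. The lowest cell inside the entry rule had 2.56% of its UMIs in the 3 genes and the highest cell left out on that criterion had 2.46%, with 77 cells failing it alone. On plate 5 the last low-*Acan* cell had 0.146% *Acan* and the first middle cell 0.156%, and the last middle cell had 0.376% and the first high-*Acan* cell 0.382%.

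All cells came from C57BL/6 mice in which *Grem1-creERT* and a Cre-dependent TdTomato allele mark cells that expressed *Grem1* at the time of tamoxifen. The mice were 5 to 6 weeks old when tamoxifen chow was started, and they received it for 2 weeks. Articular cartilage (AC) and growth plate (GP) were dissected from the hind limbs and digested, live single TdTomato-positive cells were sorted into 96-well plates, and 8 such plates (1, 2, 4, 5, 6, 7, 8 and 9) were used here. The sort had no lineage exclusion for blood or endothelial cells. The labels name neither the mice behind a plate nor whether a well held an AC or a GP cell, so the p-values measure the spread between plates, which may be technical. Low-*Acan* and high-*Acan* cells share genotype, treatment, age and plate, and whether they differ in mouse or in tissue cannot be told from the labels.

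Aggrecan, the product of *Acan*, is the large chondroitin sulfate proteoglycan that draws water into cartilage and lets it resist compression. It is held in a network of collagen II, IX and XI fibrils together with small leucine-rich proteoglycans and glycoproteins, and this mixture changes from the joint surface towards the calcified layer. Collagen X, encoded by *Col10a1*, is the classic product of hypertrophic and calcifying cartilage, in the growth plate and at the base of articular cartilage.

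The depth of the groups overlapped. Cells held a median of 1072 UMIs in the low-*Acan* group, 1260 in the middle and 1233 in the high-*Acan* group, and 4 of the 8 plates had the higher median in the high-*Acan* group (p = 0.54, two-sided exact permutation test that flips the sign of each plate's difference, called sign-flip permutation here). The sums per plate and group held 12020 to 21961 UMIs for low-*Acan* and 14467 to 20559 for high-*Acan* cells. The 8 plates shared the same 96 well barcodes, which index wells, and 0 pairs of wells held identical counts. Chondrocyte transcripts were abundant in both groups. *Cytl1*, a secreted chondrocyte protein, had a median of 138468 CPM (UMIs per 1000000 after scaling, *Acan* excluded) in low-*Acan* and of 159941 in high-*Acan* cells, against 17323 in the 136 *Cnmd*-rich cells of the same plates (*Cnmd* at least 2.5% of UMIs and above the 3 genes). *Chad* had medians of 28010 and 32266 against 7975 CPM. *Col2a1*, the collagen IX genes and *3110079O15Rik* went the other way. *Col2a1* lay between 7023 and 24721 CPM in low-*Acan* and high-*Acan* sums, against 58360 to 79802 in *Cnmd*-rich sums. *Col9a1* reached at most 2279 CPM in the former, against 4615 to 5777 in *Cnmd*-rich sums. *Gas1* and *Creb5*, listed here as articular genes, stood at medians of 3537 and 388 CPM in low-*Acan* cells against 75.5 and 8.27 in *Cnmd*-rich cells. The deposited *Grem1-TdT* table used here runs alphabetically to gene symbols that begin with Gm57, so that *Grem1*, *Prg4*, *Sox9* and other later symbols were not analysed here. UMI totals, genes per cell, percentages of UMIs and CPM, with the entry rule built on them, therefore count these rows alone. They are not values for the whole transcriptome.

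Of 658 genes with enough UMIs to test, 4 differed between high-*Acan* and low-*Acan* cells, and all 4 were higher in high-*Acan* cells (edgeR quasi-likelihood test with plate as a block, Benjamini-Hochberg adjusted p under 0.05). They were *Col10a1* (collagen X), *Ddit4l* (an inhibitor of mTOR signalling), *Fn1* (fibronectin, a matrix glycoprotein that binds integrins and collagen) and *Fos* (a subunit of the AP-1 transcription factor). This was 0.608% of the genes tested, and 0% were lower by the same rule. At an unadjusted p under 0.05, 30 genes (4.56%) were higher and 23 (3.5%) lower. Without plate in the model 1 gene, *Col10a1*, passed, and DESeq2 also called 4 genes but with *Fmod* (lower) in place of *Fos*. The median log2 fold change of all tested genes was -0.01. No gene had 8 low-*Acan* sums that lay wholly apart from the 8 high-*Acan* sums, 8 genes (1.22%) were higher on 8 of 8 plates, and 3 genes (0.456%) were lower on 8 of 8, namely *Col1a2*, *Colec12* and *Fkbp7*, none of which passed the test.

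**Figure D1:**
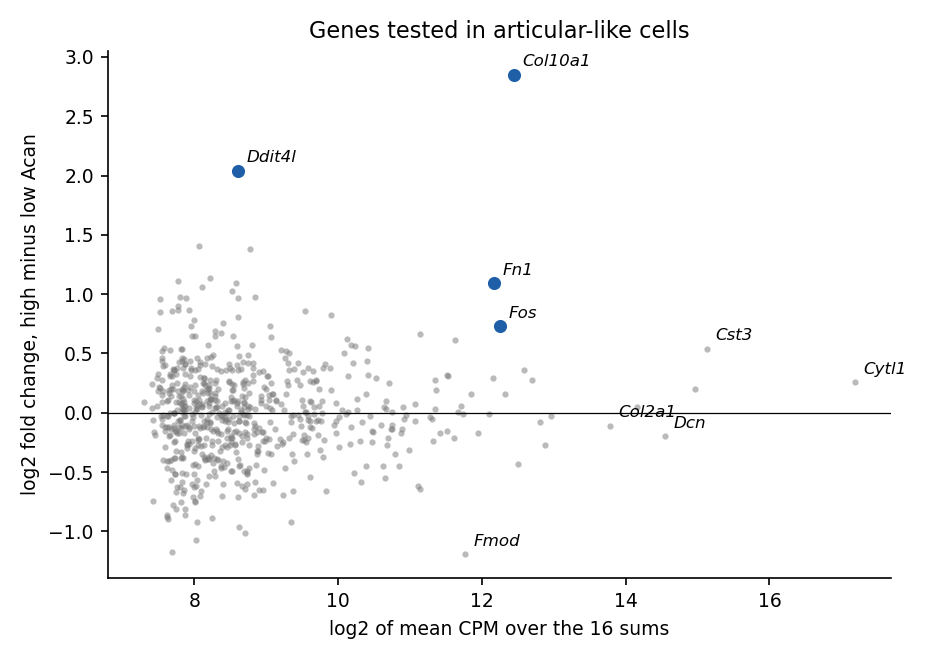
Each point is 1 of the 658 genes tested, with the log2 of its mean CPM over the 16 sums on the horizontal axis and its log2 fold change (high minus low *Acan*) on the vertical axis. The 4 genes past the threshold are blue and lie between 0.73 and 2.85, and *Fmod* has the lowest value at -1.19.

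The 250 bases before the RefSeq start of *Col10a1*, *Ddit4l* and *Fos* (GRCm38.p6, + strand) are shown because these genes were called together, *Fn1* being the fourth. Capitals mark TATAAA, the TATA box core, in *Col10a1* (bases -32 to -27 from the start) and *Fos* (-33 to -28), and TGACGT, the core of the cAMP response element, in *Fos* (-66 to -61).
*Col10a1*, chr10:34389731-34389980: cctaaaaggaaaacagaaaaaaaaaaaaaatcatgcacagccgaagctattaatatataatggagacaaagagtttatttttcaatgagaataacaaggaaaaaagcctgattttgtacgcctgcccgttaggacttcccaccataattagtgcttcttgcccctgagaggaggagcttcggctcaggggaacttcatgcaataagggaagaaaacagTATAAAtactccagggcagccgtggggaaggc
*Ddit4l*, chr3:137623422-137623671: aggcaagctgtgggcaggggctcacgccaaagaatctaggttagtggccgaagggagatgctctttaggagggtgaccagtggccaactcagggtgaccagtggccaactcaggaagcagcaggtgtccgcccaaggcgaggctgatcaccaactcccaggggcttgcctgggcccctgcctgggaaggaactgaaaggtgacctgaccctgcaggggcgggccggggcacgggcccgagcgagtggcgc
*Fos*, chr12:85473640-85473889: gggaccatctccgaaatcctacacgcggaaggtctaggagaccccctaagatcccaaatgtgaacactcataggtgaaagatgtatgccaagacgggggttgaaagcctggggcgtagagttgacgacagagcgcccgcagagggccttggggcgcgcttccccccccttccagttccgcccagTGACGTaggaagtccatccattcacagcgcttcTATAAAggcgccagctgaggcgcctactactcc
On both strands TATAAA was in 12.4% of all 32851 upstream windows of this length, TGACGT in 6.47%, the AP-1 motif TGANTCA in 6.75% and the Runx motif TGTGGT in 14%. Among the 353 tested genes with an entry these shares were 7.08%, 15.9%, 5.1% and 9.07%. The last pair were in none of the 3 windows, and *Ddit4l* held none of the 4 motifs. Its RefSeq start lies 2060 bases inside the GENCODE gene, so its window is within that gene. The windows held 41.6% G and C in *Col10a1*, 58.4% in *Fos* and 65.2% in *Ddit4l*, against a median of 52.4% over all windows. These matches describe the letters and were not tested against the expression values.

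*Col10a1* (chr10:34389981-34397085) rose 7.23-fold from low-*Acan* to high-*Acan* cells. Its level was 411 to 3759 CPM (median 843) over the 8 low-*Acan* sums and 1847 to 17654 (median 11798) over the 8 high-*Acan* sums. It was higher on every plate, and the groups overlapped because the high-*Acan* sums of plates 4 (1847) and 2 (3262) lay below the low-*Acan* sum of plate 8 (3759). The log2 fold change was 2.85 (SE 0.28, edgeR adjusted p = 1e-06, exact sign-flip permutation p = 0.0078, the smallest that 8 plates can give). The middle group lay between, with a median of 2976 CPM, above low-*Acan* cells on 6 of 8 plates and below high-*Acan* cells on 7. Exons of *Nt5dc1* overlap those of *Col10a1* on the other strand, and the counting's use of strand is not given in the sources used here. Overlaps on the other strand are also annotated for *Fn1*, *Foxo1*, *Fgfr3*, *Col9a3* and *Gas1*, and on the same strand for *Creb5*.

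Both the share of cells with *Col10a1* and the number of its UMIs in those cells were higher. At least 1 UMI was found in 42.2% of low-*Acan* cells (95% Clopper-Pearson interval 32.8 to 52.0%), in 67.2% (58.0 to 75.6%) of middle and in 67.9% (58.3 to 76.5%) of high-*Acan* cells. Such intervals cover counting error only. After random thinning to 759 UMIs in each cell these became 39.6%, 60.4% and 63.4%, and the high-*Acan* share was above the low-*Acan* share on 7 of 8 plates (exact sign-flip permutation p = 0.023). Thinning left out 18 shallower cells of the low-*Acan* group and 8 of the high-*Acan* group. Among cells with the transcript, the median was 2 UMIs in low-*Acan*, 3 in middle and 7 in high-*Acan* cells. Cells with 10 or more *Col10a1* UMIs numbered 4, 21 and 30 in the same order. No single cell made the difference, as the top high-*Acan* cell held 104 of the 1213 *Col10a1* UMIs of its group.

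**Figure D2:**
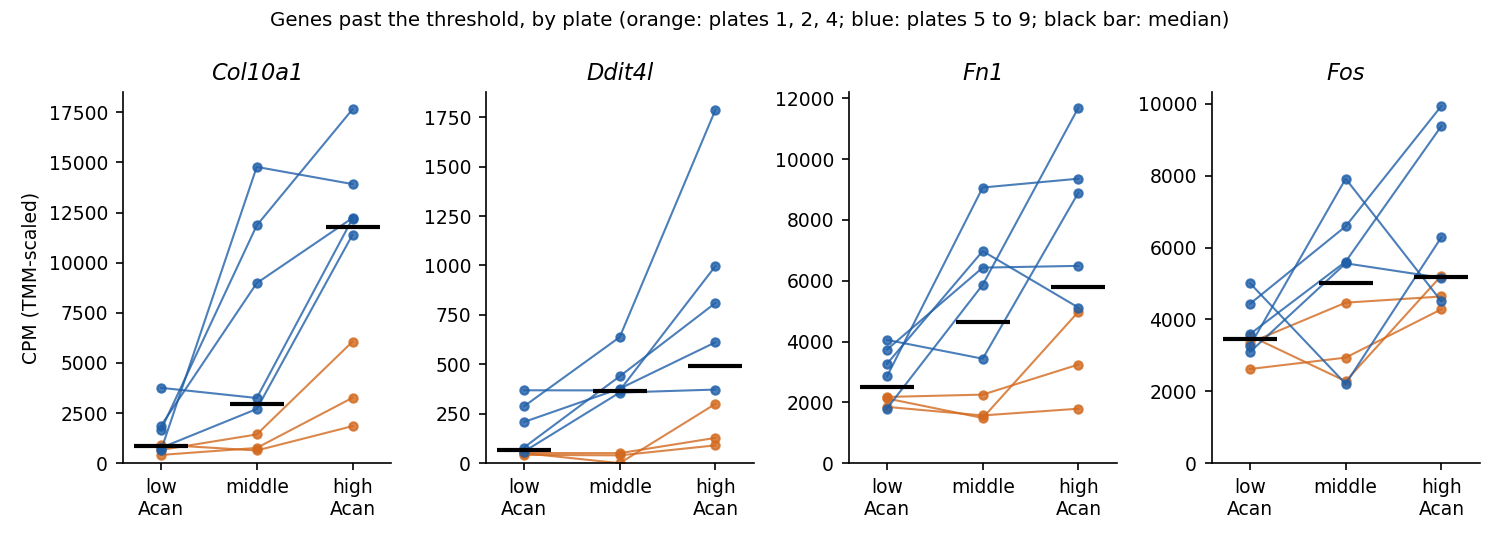
TMM-scaled CPM of the 4 called genes in low-*Acan*, middle and high-*Acan* cells, with 1 line per plate and a black bar at the median of the 8 plates. *Col10a1*, *Ddit4l* and *Fos* were higher in high-*Acan* than in low-*Acan* cells on 8 of 8 plates and *Fn1* on 7.

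**Figure D3:**
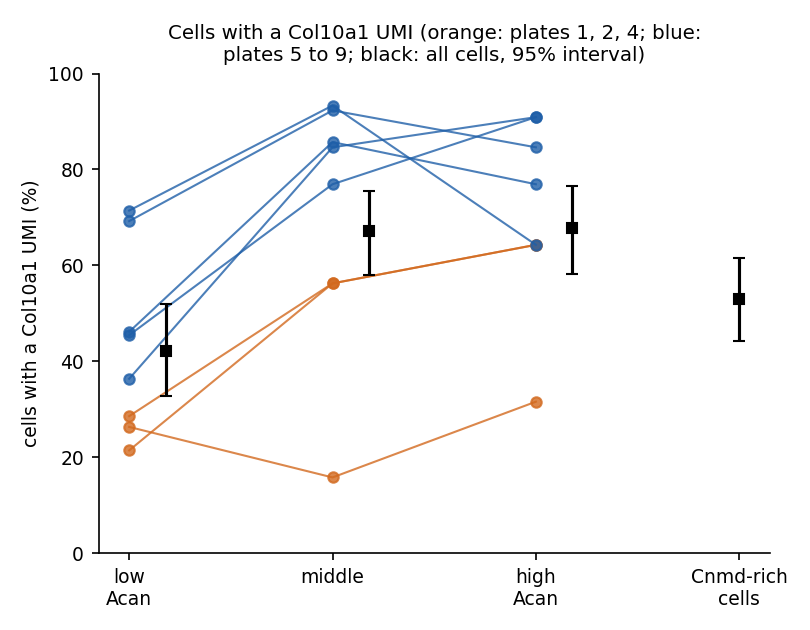
Percentage of cells with at least 1 *Col10a1* UMI by plate, with 1 line per plate, and over all cells with a 95% Clopper-Pearson interval (black), beside the *Cnmd*-rich cells. The share was 42.2% in low-*Acan* and 67.9% in high-*Acan* cells, and plates 5 to 9 lay above plates 1, 2 and 4 in low-*Acan* cells.

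*Ddit4l* (chr3:137621612-137628333) was a sparse transcript, with 17 UMIs in low-*Acan*, 39 in middle and 75 in high-*Acan* cells. Its level was 41.9 to 369 CPM (median 68.8) in low-*Acan* and 90.1 to 1788 (median 492) in high-*Acan* sums. The ranges overlapped, but the high-*Acan* sum was the higher on all 8 plates. The log2 fold change was 2.04 (SE 0.34, edgeR adjusted p = 0.0022), a 4.12-fold difference. At least 1 UMI was found in 14 low-*Acan* and 27 high-*Acan* cells, and after thinning the shares of 9.89% and 16.8% were not separated over plates (exact sign-flip permutation p = 0.16). It was too sparse to be tested on plates 1, 2 and 4 alone, where it had 3 and 9 UMIs. The same held with cells thinned to 759 UMIs and ranked anew.

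*Fn1* (chr1:71585520-71653200) ran from 1796 to 4054 CPM (median 2514) in low-*Acan* and from 1791 to 11695 (median 5801) in high-*Acan* sums. The high-*Acan* sums reached far above the low-*Acan* ones, but the lowest of all was a high-*Acan* sum. The log2 fold change was 1.09 (SE 0.22, edgeR adjusted p = 0.016), a 2.13-fold difference seen on 7 of 8 plates. The call was lost without plate 1, 5 or 8, where the adjusted p was 0.053, 0.074 and 0.06. It was also lost with cells thinned to 759 UMIs and ranked anew (log2 fold change 0.71, edgeR adjusted p = 0.31). After thinning, 70.3% of low-*Acan* and 84.2% of high-*Acan* cells held *Fn1* (exact sign-flip permutation p = 0.1). *Fn1* was present in most cells of both groups (79.8% and 93.6%), and 8 low-*Acan* against 31 high-*Acan* cells held 10 or more UMIs.

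*Fos* (chr12:85473890-85477273) ran from 2621 to 5012 CPM (median 3449) in low-*Acan* and from 4285 to 9945 (median 5190) in high-*Acan* sums. The groups overlapped between 4285 and 5012, and the high-*Acan* sum was the higher on all 8 plates. The log2 fold change was 0.73 (SE 0.16, edgeR adjusted p = 0.03), a 1.65-fold difference. The call was lost when plate 1, 5, 6, 7 or 8 was left out (adjusted p 0.053 to 0.17). It was also lost with cells thinned to 759 UMIs and ranked anew (log2 fold change 0.63, edgeR adjusted p = 0.21). After thinning, 86.8% of low-*Acan* and 82.2% of high-*Acan* cells held *Fos* (exact sign-flip permutation p = 0.41). Of the 15 immediate early genes listed, 12 were tested and *Fos* alone passed. *Fosb* had a log2 fold change of 0.50 (adjusted p = 0.74), *Egr1* -0.01 and *Egr2* 1.06, while *Gadd45g* had -0.62, so that 6 members lay above and 6 below 0 with a list median of 0.07.

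The comparison was repeated within cells with and without a *Col10a1* UMI. Where cells with a *Col10a1* UMI were taken alone and ranked anew, *Ddit4l*, *Fn1*, *Fos* and *F13a1* passed as higher and *Fmod* as lower among 372 tested genes. *Col10a1* chose these cells, and its own value in them is no independent result. Where cells without one were taken alone, edgeR called 0 of 142 tested genes, with 4 at an unadjusted p under 0.05, and the log2 fold changes were 0.12 for *Fn1* and 0.13 for *Fos*. The latter cells are fewer and their sums smaller, and the difference between these strata was not tested. Where the ranking was made separately within cells with and without *Col10a1*, *Col10a1* (2.21), *Ddit4l* (2.30) and *Fn1* (1.03) passed and *Fos* (0.63) did not.

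Of the collagens II, IX, XI and XXVII, a list that does not hold *Col10a1*, no member passed the test. Of the 7 tested members 5 lay above and 2 below 0, and the list median was 0.27. *Col2a1*, the main fibrillar collagen of cartilage, ran from 9396 to 24721 CPM (median 13815) in low-*Acan* and from 7023 to 18791 (median 14061) in high-*Acan* sums. Both ranges covered nearly the same values (log2 fold change -0.11, SE 0.14, edgeR adjusted p = 0.96). The chains of collagen IX, which decorates the surface of collagen II fibrils, had log2 fold changes of 0.38 (*Col9a1*, SE 0.22), 0.37 (*Col9a2*, SE 0.30) and 0.56 (*Col9a3*, SE 0.22). The *Col9a3* sums were higher on 7 of 8 plates, with an unadjusted p of 0.02 and an adjusted p of 0.53. *Col27a1*, a fibrillar collagen of cartilage, had 0.27 (SE 0.24), and *Col11a1* and *Col11a2*, chains of the collagen XI core, -0.17 and 0.25.

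**Figure D4:**
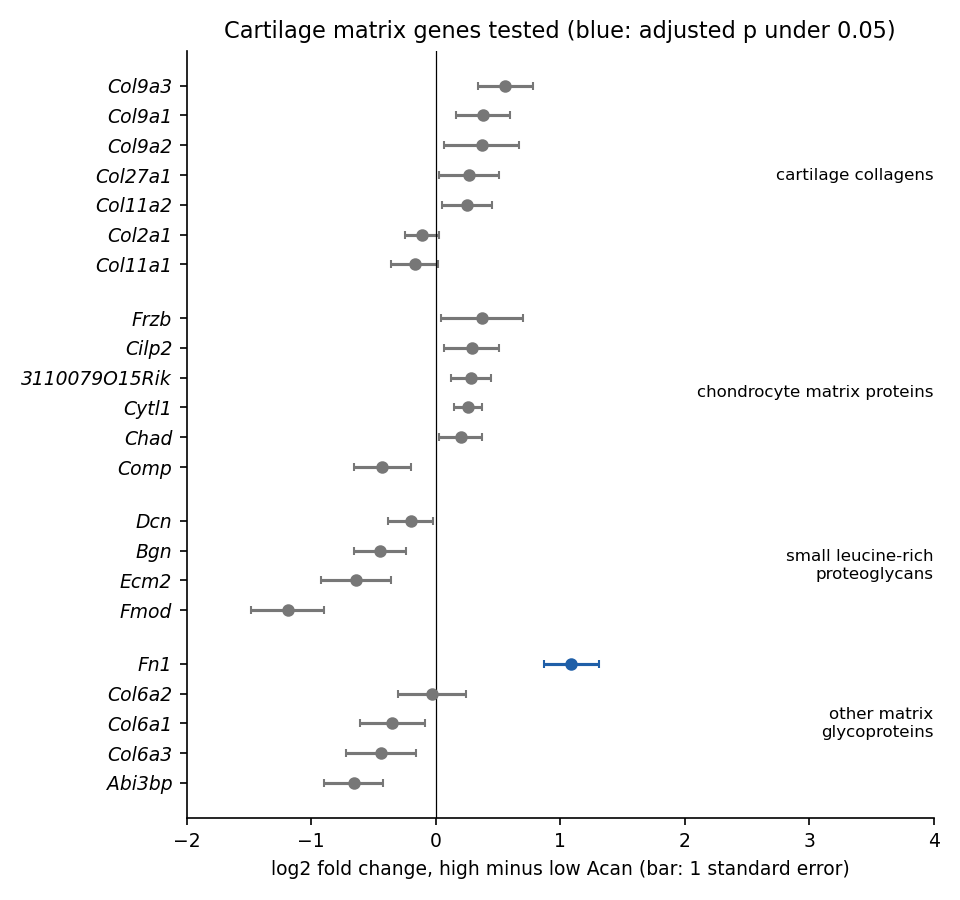
Log2 fold changes (high minus low *Acan*, points) with 1 standard error (bars) for the tested members of 4 cartilage matrix lists. *Fn1* passed the threshold (blue), and the 4 small leucine-rich proteoglycans lay below 0, from -0.20 to -1.19.

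Small leucine-rich proteoglycans, which bind collagen fibrils and set their diameter, gave no call. Of 6 members 4 were tested, none passed and all 4 had log2 fold changes below 0 (median -0.55), while the summed list was higher in high-*Acan* cells on 3 of 8 plates. Of the 4, 3 had an unadjusted p under 0.05, a level that 3.5% of all genes reached in this direction. *Fmod* (fibromodulin, chr1:134037254-134048277) ran from 3022 to 6254 CPM (median 4643) in low-*Acan* and from 638 to 5117 (median 1469) in high-*Acan* sums. It was lower on 6 of 8 plates, all except plates 4 and 6, and the middle group had a median of 2232. The log2 fold change was -1.19 (SE 0.29, edgeR adjusted p = 0.059, exact sign-flip permutation p = 0.039), and the adjusted p was 0.032 with DESeq2. *Ecm2* had -0.64 and *Bgn* (biglycan) -0.45, each lower on 7 of 8 plates, and *Dcn* (decorin), the most abundant, -0.20 on 4 of 8.

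The chondrocyte matrix proteins other than aggrecan showed no call in 6 tested of 12. *Cytl1*, the most abundant of the tested genes, had a log2 fold change of 0.26 (SE 0.11, adjusted p = 0.53) and was higher on 7 of 8 plates. *Chad* (chondroadherin) had 0.20, *3110079O15Rik* 0.28 and *Cilp2* 0.29, while *Comp*, a pentameric protein that bridges matrix molecules, had -0.43. Of the other matrix glycoproteins, 5 of 16 were tested and *Fn1* alone passed. *Abi3bp*, a matrix protein of the joint surface list, had -0.66 (unadjusted p = 0.012, adjusted p = 0.43) and was lower on 7 of 8 plates, and the 3 collagen VI chains had -0.03, -0.35 and -0.44.

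The enzymes that build the chondroitin sulfate chains of aggrecan were mostly too sparse to test. Of 18 members 4 were tested and none passed, with log2 fold changes of 0.06 (*Chsy1*), 0.11 (*Chst12*), -0.38 (*Dse*) and 0.65 (*Csgalnact2*). Of 12 proteases and inhibitors that act on matrix, 5 were tested and none passed, with 4 above 0 and a median of 0.54. *Cst3* (cystatin C, an inhibitor of cathepsins) ran from 21614 to 38478 CPM (median 27750) in low-*Acan* and from 23922 to 63390 (median 43778) in high-*Acan* sums. It was higher on 8 of 8 plates by 0.54 on the log2 scale (SE 0.16, unadjusted p = 0.003, adjusted p = 0.26). *Ctsd*, a lysosomal protease, had 0.64 (unadjusted p = 0.033).

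Apart from *Col10a1*, no tested gene of the hypertrophic and mineralising cartilage list passed. The list holds only symbols within the rows used, and later ones such as *Mmp13* were not analysed. Of 10 members 7 were tested, with 5 above and 2 below 0. *Cd200*, a surface glycoprotein used to define skeletal stem cells, had 0.55 (SE 0.27, unadjusted p = 0.05) and was found in 56.9% of low-*Acan* and 61.5% of high-*Acan* cells. *Enpp1*, which makes pyrophosphate, had 0.42, while *Ank*, which exports it, had -0.48. *Fgfr3*, the receptor that restrains chondrocyte growth, held 25 UMIs in low-*Acan* and 41 in high-*Acan* cells, with a log2 fold change of 0.65 (SE 0.42, adjusted p = 0.74).

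Of the articular surface and joint formation list 7 of 14 were tested and none passed. *Foxo1*, a transcription factor of the antioxidant and autophagy response, held 36 and 64 UMIs, with 126 to 554 CPM (median 266) against 213 to 921 (median 506). Its ranges overlapped, and the log2 fold change of 0.81 (SE 0.32, unadjusted p = 0.019) had an adjusted p of 0.53. After thinning, 20.9% of low-*Acan* and 24.8% of high-*Acan* cells held *Foxo1* (exact sign-flip permutation p = 0.78). *Gas1*, a hedgehog co-receptor, ran from 2230 to 4494 CPM in low-*Acan* and from 2117 to 4559 in high-*Acan* sums, with a log2 fold change of -0.01 (SE 0.17) whose sign turned under several settings. *Creb5*, a transcription factor of joint surface cartilage, had -0.01 (SE 0.30) with 54 UMIs in each group, and its sign turned likewise. *Erg*, a transcription factor of the joint surface, had 24 UMIs in low-*Acan* and 23 in high-*Acan* cells and was too sparse to test. The genes that chose the cells got no test: *Cilp* had medians of 10305 and 17706 CPM and *1500015O10Rik* 15412 and 26683, each higher in high-*Acan* cells on 8 of 8 plates, whereas *Clu* had 18969 and 15303 and was higher on 1.

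Pathways of general cell state gave no call. In the glycolysis and hypoxia list 4 of 14 genes were tested and all 4 lay above 0 (median 0.42), led by *Eno1* (0.50) and *Aldoa* (0.44), 2 glycolytic enzymes with unadjusted p of 0.025 and 0.035. Of 23 tested subunits of ATP synthase and cytochrome oxidase, 9 lay above and 14 below 0 (median -0.05), and *Cox7a2* had -0.45. Of 16 tested secretory and folding genes, 10 lay above and 6 below 0 (median 0.07), with *Copz2* at 0.46 and *Fkbp7* at -0.78. *Bmp2* and *Chrdl2*, a BMP ligand and a BMP antagonist, had 1.03 and 0.97 with 33 and 40 UMIs in low-*Acan* against 66 and 72 in high-*Acan* cells, and adjusted p of 0.49 and 0.6. In the FGF list (*Fgfr1* and *Fgfr2*, without *Fgfr3*), the Wnt and hedgehog lists and the FoxO and antioxidant list (without *Foxo1*) 2, 2, 2 and 5 genes were tested and none passed. The G1 cyclin and inhibitor list had 3 tested genes between -0.05 and 0.03, and the actin and YAP list 6 with a median of -0.03.

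Markers of blood and endothelial cells were at or near 0, and fibroblast and osteoblast markers summed lower in high-*Acan* cells on 7 of 8 plates. No gene of the endothelial, immune, marrow stromal, or S and G2/M phase lists had enough UMIs to test. The 10 endothelial genes summed to medians of 0 and 30.0 CPM in low-*Acan* and high-*Acan* sums (up to 206 and 192), with *Cldn5*, *Emcn* and *Flt1* among 6 genes at 0 UMIs. The 15 immune genes summed to medians of 140 and 94.0 (up to 633 and 663), with *Csf1r*, *Cd3e* and *Adgre1* among 9 at 0. The 7 marrow stromal genes summed to medians of 271 and 275, and the S and G2/M list to 236 and 216. The 11 fibroblast and synovial genes summed to 1548 to 3502 CPM (median 2784) in low-*Acan* and 670 to 3616 (median 1778) in high-*Acan* sums, and the 9 osteoblast genes to 1298 to 5069 (median 2230) and 766 to 3836 (median 1270), each higher in high-*Acan* cells on 1 of 8 plates. *Col1a2*, a collagen I chain in both lists, was lower on 8 of 8 plates (log2 fold change -0.58, unadjusted p = 0.008, adjusted p = 0.4). The part of these cells in the *Fmod* and *Bgn* values was not tested.

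*Cnmd*-rich cells of the same plates, another group of *Grem1*-lineage cartilage cells, were ranked by *Acan* in the same way. Cells in neither group were not examined. In them edgeR called 0 of 1124 genes between high-*Acan* and low-*Acan* cells, with 36 at an unadjusted p under 0.05. There were 136 such cells against 337 articular-like cells, so their groups held fewer cells per plate. How far *Acan* itself differed between these groups is not given here. The difference between articular-like and *Cnmd*-rich cells passed for 1 of 1124 genes (0.089%), *Col10a1*, which had a log2 fold change of 2.91 in articular-like and -0.08 in *Cnmd*-rich cells (difference 2.99, edgeR adjusted p = 8.2e-05). In *Cnmd*-rich cells the level of *Col10a1* was low, with a median of 372 CPM, below the low-*Acan* articular-like median. The tests of the difference did not pass for *Fos* (1.02, adjusted p = 0.64), *Fn1* (1.11, adjusted p = 0.64), *Ddit4l* (1.89, adjusted p = 1) or *Fmod* (-1.04, adjusted p = 0.8). A *Col10a1* UMI was found in 52.9% of *Cnmd*-rich cells, but they were deeper (median 2316.5 UMIs), and thinned to 759 UMIs the share was 28.2%.

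**Figure D5:**
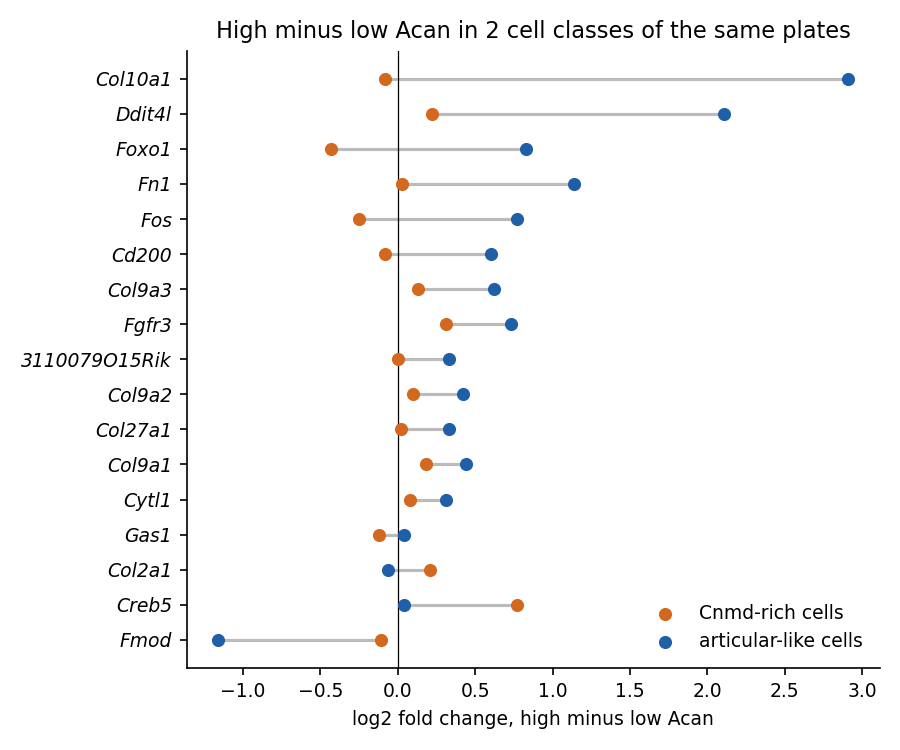
Log2 fold change (high minus low *Acan*) of each gene in articular-like cells (blue) and in *Cnmd*-rich cells (orange) of the same 8 plates, ordered by the difference. *Col10a1* was at 2.91 and -0.08, and it was the gene whose difference passed the test.

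Plates 1, 2 and 4 were set against plates 5 to 9, a split chosen with earlier results of these data known. Of the 49 cells without an *Acan* UMI, 34 were among the 145 articular-like cells of plates 1, 2 and 4 and 15 among the 192 of plates 5 to 9. *Col10a1* passed in both sets, with log2 fold changes of 2.31 (adjusted p = 0.00012) and 3.13 (adjusted p = 1.3e-05), and these did not differ by the interaction test (difference 0.76, adjusted p = 0.93). *Fn1* and *Fos* had 0.60 and 0.56 on plates 1, 2 and 4, neither of which passed, and 1.39 (passed) and 0.84 (adjusted p = 0.089) on plates 5 to 9. *Fmod* had -0.60 and -1.59, the latter with an adjusted p of 0.024, and the difference between the sets had an adjusted p of 0.93. One gene of 658 (0.152%) differed between the sets, *Chil1*, a secreted chitinase-like protein of cartilage and inflammation. On plates 1, 2 and 4 it had 402 UMIs in low-*Acan* and 29 in high-*Acan* cells, and on plates 5 to 9 it had 57 and 149. A pair of low-*Acan* cells, with 174 and 122 UMIs, held 296 of the 402, and 106 were left without them. On plates 5 to 9 a pair of high-*Acan* cells held 96 of the 149, and 53 were left without them.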

How the data were processed

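The authors deposited whole-number UMI counts per gene and well without normalisation. The submitters' processing notes name UMI-tools, STAR, featureCounts, SAMtools, Seurat and mm10, with no versions. For *Grem1-TdT* cells, 29183 complete gene rows were used and 1 incomplete row was left out. Plates were assigned to the *Grem1-TdT* lineage from their labels. The *Lepr-TdT* plates were not used.

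The members and gene lists were chosen with earlier results of these data known. *Acan* was removed, and UMIs were summed per plate and group (16 sums of 12020 to 21961 UMIs, *Acan* included). Genes were kept by filterByExpr with a minimum count of 3, scaled by TMM and tested in edgeR 4.0.16 (R 4.3.3) with glmQLFTest, plate as a block and Benjamini-Hochberg adjustment at 0.05. *Clu*, *Cilp*, *1500015O10Rik* and *Cnmd* were not tested. CPM values (UMIs per 1000000) are TMM-scaled, and the middle and *Cnmd*-rich sums were scaled to the same reference sum. Single genes were checked by an exact two-sided sign-flip permutation test over 256 sign patterns of the log2 difference (prior count 1). Doublets were not called, as wells were sorted as single cells. The plate pairs the sums, which come from 1 library, and the deviations of same-plate sums correlated at 0.0427 to 0.240 (7 of 8 above 0.1) against a mean of -0.0217 between plates. Named genes were those past the threshold, 14 fixed symbols, and up to 4 abundant members per list. *F13a1*, *Chil1* and other members were named after their values were seen. Alternatives were DESeq2 1.42.0, other filters, groupings and entry rules, and leaving out plates. On data simulated for the 658 genes, 200 of them changed, edgeR recovered 59% of genes changed 2-fold and 98% of those changed 4-fold. False calls made up 2.48% of its calls. The simulated share of changed genes was far above the share called in the data, and recovery with fewer changed genes was not examined. Coordinates are from GENCODE release 21 of the mouse annotation (GRCm38), where 97.2% of symbols matched, and upstream sequences from RefSeq (GRCm38.p6), which had an entry for 3 of the 4 called genes.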

Additional observations from a re-analysis of the deposited data

Results flagged for a closer look

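Among 34 sets of 8 plate values examined for the genes named by symbol, 5 had 1 plate far from the nearest other one. The usual chance rate of about 1 in 20 assumes values without skew, whereas the rule was applied to unlogged CPM. How often such counts pass it by chance was not examined. *Col10a1* in low-*Acan* cells stood at 3759 CPM on plate 8 against 1868 on the next plate. *Fgfr3* in low-*Acan* cells stood at 575 on plate 6 against 233, and *Cd200* in low-*Acan* cells at 2580 on plate 8 against 1517. *Col9a1* stood apart on plate 9 in both groups, at 1736 against 590 in low-*Acan* and at 2279 against 884 in high-*Acan* cells.

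The difference between high-*Acan* and low-*Acan* cells was larger in articular-like than in *Cnmd*-rich cells for *Col10a1*, by 2.99 on the log2 scale. For *Chil1* it was higher on plates 5 to 9 than on plates 1, 2 and 4 by 4.44 on the log2 scale, and a pair of low-*Acan* cells held 296 of the 402 UMIs of their group on plates 1, 2 and 4, as a pair of high-*Acan* cells held 96 of the 149 on plates 5 to 9.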

How the results depend on the processing

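The count of 4 called genes became 8 without a filter on low counts, 2 with a median split of each plate, 2 with cells thinned to a common depth, 7 with *Acan* ranked outside the 20 most abundant genes, and 0 in cells without a *Col10a1* UMI (an alternative chosen after seeing the data). With thinned cells the 2 genes were *Col10a1* and *Gm23935*, and *Ddit4l* was too sparse to be tested. Without the replicate block 1 gene passed. Leaving out 1 plate at a time gave 2 to 6 calls, with 2 left without plate 1, 5 or 8. *Col10a1* passed in all 23 alternatives that tested it (1.70 to 3.30), 2 of which used *Col10a1* itself to choose or stratify cells, and *Ddit4l* in 18 of 19, while *Fn1* lost its call in 8 of 24 and *Fos* in 14 of 24. *Fmod* passed in 8 of 24, from -0.49 to -1.59. The difference from *Cnmd*-rich cells called *Col10a1* alone under each alternative, 1 gene in each (1 to 1 with plates left out). Signs turned for *Col2a1* (0.05, cells without *Col10a1*), *Col9a2* (-0.10, plates 5 to 9), *Col27a1* (-0.02, cells with *Col10a1*), *Creb5* (0.02 with DESeq2 and with its size factors, 0.10 in cells with *Col10a1*, 0.43 on plates 1, 2 and 4, -0.10 to 0.17 without single plates) and *Gas1* (0.02 with DESeq2 and with its size factors, 0.00 without the block, 0.15 without a gene minimum, 0.05 on plates 5 to 9, -0.08 to 0.12 without single plates), none of them past the threshold. The causes were not tested. The 11 to 19 cells per sum, shallow in the gene rows used, limit the test to abundant genes, and most listed regulators could not be tested.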
